A study of Homo sapiens with 12 samples.

Results

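The genes described here encode the chains of the human collagens. They were taken as every gene of the count table whose symbol consists of COL, a number, the letter A and a number, which gave 44 of 60607 genes. Of the 44 genes, 11 encode chains of fibrillar collagens, 6 chains of basement membrane collagen, 10 chains of FACIT collagens (fibril-associated collagens with interrupted triple helices) and 17 chains of other collagens. After the low-count filter 35 of the 44 genes were tested: 10 of 11 fibrillar, 6 of 6 basement membrane, 6 of 10 FACIT and 13 of 17 other chains.

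RNA was sequenced in 12 libraries of the human line AC16, which arose from a fusion of adult ventricular heart tissue cells with SV40-transformed fibroblasts and which the labels call wild-type cardiomyocytes. The 4 groups of 3 libraries were control cells, given the medium DMEM alone, and cells given 0.1 µM doxorubicin for 2 days (48 hours), 4 days (96 hours) or 6 days. For the longest exposure the titles give 112 hours where the design text gives 6 days. All 12 titles carry day 6, and whether an exposure ended at harvest is not stated, so 2, 4 and 6 days name lengths of exposure. All groups share the cell line and its growth medium, and doxorubicin is an anthracycline drug that poisons topoisomerase II. The labels do not tell whether the repeats of a group were separate cultures, and p-values therefore reflect the spread among these libraries, which may be technical.

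Collagens are trimers of chains that wind into a triple helix, and each chain is encoded by its own gene. Fibrillar collagens form the banded fibrils of heart and other connective tissue, FACIT collagens sit on the surface of those fibrils, type IV collagen forms the sheet of basement membranes, and type VI collagen forms beaded filaments close to cells. In the heart, collagen is made mainly by fibroblasts, and cardiomyocytes are surrounded by a basement membrane that contains type IV collagen.

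The libraries held 14835743 to 21226441 counts, of which 1.14 to 1.66% fell on the 44 collagen genes. Levels are given as CPM, the usual unit of a gene's counts divided by the library total, here after TMM scaling (trimmed mean of M values). Of 12 cardiomyocyte markers, 3 passed the low-count filter, MYL2 had 0 counts in every library, and the means of TNNT2, TNNI3, MYH6, MYH7 and ACTC1 stayed at or under 0.257 CPM in every group, so most contractile markers of the labelled cell type were at or near 0. TTN, which encodes the sarcomere protein titin, stood at 11.3 CPM in the control and 16.7 CPM after 6 days, where it was called higher (adjusted p = 0.0225). ACTN2, the sarcomeric alpha-actinin, stood at 0.0658 CPM in the control and at 0.983, 0.455 and 0.767 CPM after 2, 4 and 6 days, and was called higher at each exposure (adjusted p = 2.09e-05, 0.00414 and 0.000129). ACTN2 passed the low-count filter only through exposed libraries, where it stood high, so these calls are not separate support. All 12 fibroblast markers other than collagens were tested, and VIM, the intermediate filament vimentin, was the most abundant of them at 2130 CPM in the control. In RNA from whole cultures, fewer cells of a type and less RNA per cell cannot be told apart. The share of counts from mitochondrial genes was 8.26% in control replicate 2 against 6.01 and 6.75% in the other control libraries, and 5.51% in 2-day replicate 3 against 7.62 and 7.74% in the other 2-day libraries. Its part in the results was not tested.

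The summed collagen transcript level was highest after 2 days of doxorubicin, and with longer exposure its make-up differed from the control, with a smaller part from fibrillar and FACIT chains and a larger part from type VI chains. Over all 44 genes the summed level was 11500 ± 229 CPM in the control (mean ± SD, n = 3), 17500 ± 317 CPM after 2 days, 12600 ± 605 CPM after 4 days and 11500 ± 573 CPM after 6 days. Fibrillar chains made up 66.0% of the summed level in the control and 47.4% after 6 days. Type VI chains made up 13.5% in the control and 37.2% after 6 days. The sums of the 2-day libraries all lay above those of the other 9 libraries, and the control and 6-day sums overlapped. These sums are descriptions and were not tested.

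**Figure D1:**
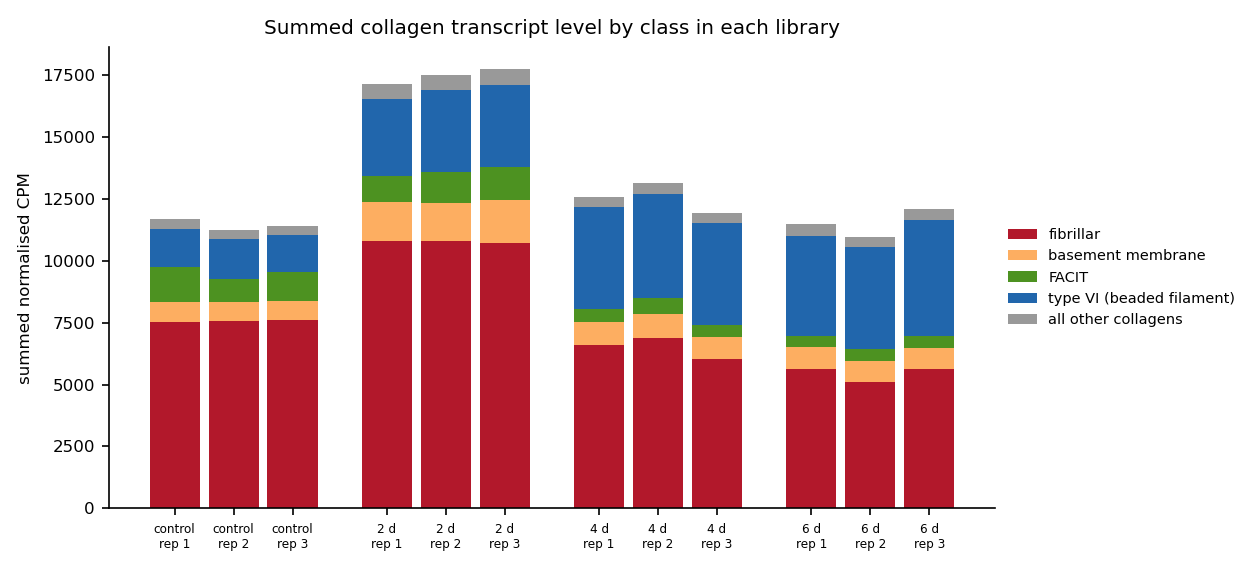
Summed normalised CPM (vertical axis) of the fibrillar, basement membrane, FACIT, type VI and all other collagen genes, stacked for each of the 12 libraries (horizontal axis, 3 replicates per group). The 2-day libraries reach 17100 to 17800 CPM, and the type VI segment is wider in every 4-day and 6-day library (4060 to 4700 CPM) than in the control libraries (1480 to 1600 CPM).

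Against the control, 20 of the 35 tested collagen genes were higher and 3 lower after 2 days, at an adjusted p under 0.05 in edgeR's quasi-likelihood test with Benjamini-Hochberg adjustment over all 17320 genes tested. Among all genes tested, 23.8% were called higher and 23.4% lower in that comparison. After 4 days 14 collagen genes were higher and 9 lower, against 18.8 and 17.7% of all genes. After 6 days 17 were higher and 10 lower, against 22.0 and 21.7% of all genes. COL5A3, COL9A3, COL14A1, COL17A1, COL21A1 and COL25A1 passed the low-count filter only with the help of exposed libraries. Where these genes were called higher, the calls are therefore not separate support. The median log2 fold change of the 35 genes was 0.63, 0.17 and 0.27 at the 3 exposures, beside -0.01, 0.00 and -0.01 over all genes tested. Without control replicate 2 and 2-day replicate 3, a fit added after the data were seen, the counts over these 35 genes were 20 higher and 3 lower, 13 and 8, and 17 and 11.

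From 2 to 4 days of exposure 20 of 35 collagen genes were lower and 4 higher, where 18.5% of all genes were called lower and 16.3% higher. Of the 20, 14 had been called higher than the control after 2 days, 5 had not been called and 1, COL11A1, was already lower. The same 2-day libraries enter both comparisons, which favours such a split, and its share over all genes was not computed. All 6 chains of type IV collagen and 8 of 10 fibrillar chains were among the 20. Of the 4 higher genes, COL6A1 and COL6A2 encode type VI chains, COL10A1 a chain of network-forming type X collagen and COL13A1 a transmembrane collagen. From 4 to 6 days 6 genes were higher and 4 lower, where 3.05 and 3.73% of all genes were called. The counts of that last comparison moved when 1 library was left out: the higher count was 3 without 4-day replicate 1, 4-day replicate 3, 6-day replicate 1 or 6-day replicate 2, and the lower count was 2 without 4-day replicate 1, 4-day replicate 2 or 6-day replicate 2. In the fits without 1 library that lost the call, the log2 fold change of COL10A1 was 0.54 to 0.68, beside 0.64 with all libraries. For COL4A5 it was 0.30 to 0.31, beside 0.33. For COL11A1 it was -0.31 to -0.49, beside -0.47. A test for any difference among the 4 groups called 32 of the 35 genes, where 63.4% of all genes were called. Of those 32 genes, 17 had their highest mean after 2 days, 6 in the control, 6 after 6 days and 3 after 4 days. The same split over all genes was not computed, so these counts cannot show whether collagen genes differed from other genes in it.

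**Figure D2:**
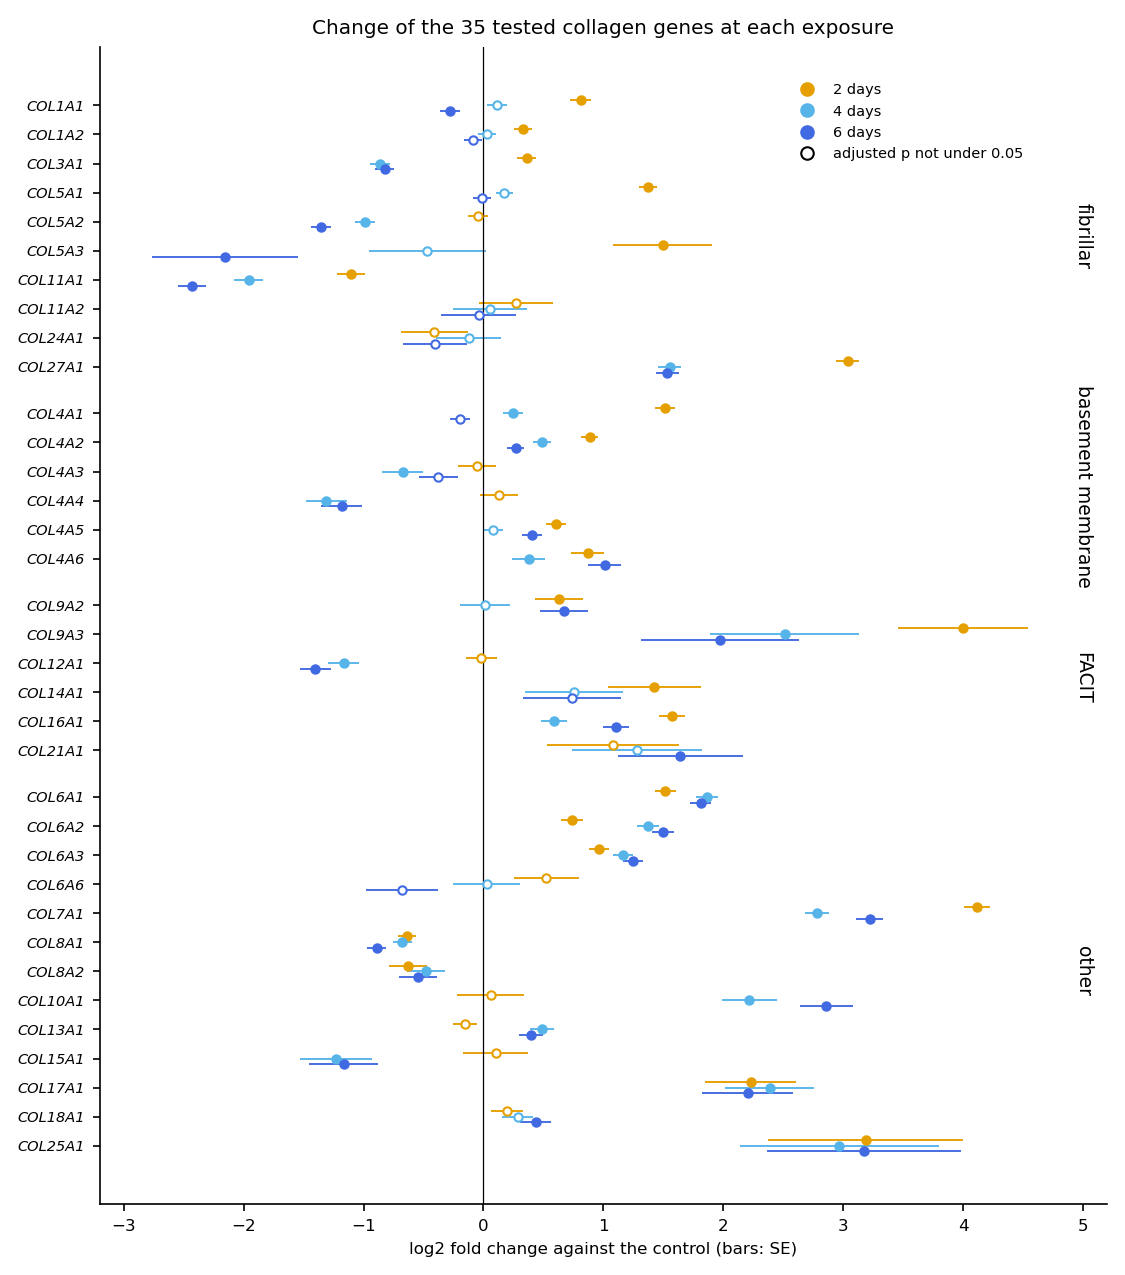
Log2 fold change against the control (horizontal axis, bars show the SE) of the 35 tested collagen genes, grouped by class, after 2, 4 and 6 days of doxorubicin, with filled points for an adjusted p under 0.05. The 2-day points of COL7A1 (4.12) and COL27A1 (3.04) lie far to the right, and COL11A1 lies to the left at all 3 exposures (-1.10, -1.96 and -2.43).

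The start regions of 3 genes are shown because they belong to chains with different responses: COL7A1 and COL27A1 had the largest rises at 2 days among chains that reached 20 CPM in some group, and COL12A1 fell at 4 and 6 days with no call at 2 days. Each is the stretch of 250 bases before the RefSeq start site in GRCh38.p14, written 5′ to 3′ along the gene's strand. Capitals mark matches, on either strand, to the motifs GGGCGG (the GC box) and TATAAA. No annotated exon of GENCODE release 29 lies in these windows.
COL7A1, chr3:48595330-48595579, minus strand: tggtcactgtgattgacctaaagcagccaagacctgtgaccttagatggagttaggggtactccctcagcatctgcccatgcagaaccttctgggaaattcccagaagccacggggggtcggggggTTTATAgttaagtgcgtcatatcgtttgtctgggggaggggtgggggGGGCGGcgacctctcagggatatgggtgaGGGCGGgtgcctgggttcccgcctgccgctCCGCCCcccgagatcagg
COL27A1, chr9:114155287-114155536, plus strand: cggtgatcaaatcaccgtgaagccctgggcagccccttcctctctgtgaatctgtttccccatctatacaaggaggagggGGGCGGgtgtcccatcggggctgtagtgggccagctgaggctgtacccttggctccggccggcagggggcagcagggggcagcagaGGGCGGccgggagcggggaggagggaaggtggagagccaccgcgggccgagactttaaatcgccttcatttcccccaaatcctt
COL12A1, chr6:75206054-75206303, minus strand: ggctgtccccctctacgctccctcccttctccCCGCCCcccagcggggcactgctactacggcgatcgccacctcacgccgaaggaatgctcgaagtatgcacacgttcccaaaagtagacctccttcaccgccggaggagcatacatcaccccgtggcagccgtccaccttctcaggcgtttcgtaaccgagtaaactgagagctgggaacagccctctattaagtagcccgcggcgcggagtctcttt
The COL7A1 window held 3 matches to GGGCGG and 1 to TATAAA, the COL27A1 window 2 to GGGCGG and the COL12A1 window 1 to GGGCGG. Matches to CCAAT and to TGANTCA, the site form bound by AP-1 factors, were also searched on both strands and were not found in these 3 windows, and none of the marked matches overlapped another. Among 27305 promoters in the RefSeq table, the same 250 bases before the start held GGGCGG in 42.3%, CCAAT in 33.0%, TATAAA in 11.1% and TGANTCA in 6.6%. Of the 44 collagen genes 32 had an entry there, and 18, 9, 5 and 0 of the 32 held the same 4 motifs. A match is a description of the letters and was not related to the expression values.

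Type I collagen, the main fibrillar collagen of most connective tissue, is a trimer of COL1A1 and COL1A2 chains. COL1A1 stood at 2319, 2772 and 2655 CPM in the control libraries, 4606, 4697 and 4284 CPM after 2 days, 2813, 2917 and 2653 CPM after 4 days and 2159, 1916 and 2307 CPM after 6 days. The 2-day libraries lay above all others, and the 6-day libraries lay below the control libraries without overlap. COL1A1 rose 1.75-fold after 2 days (log2 fold change 0.81, SE 0.085, adjusted p = 2.28e-08), did not pass the threshold after 4 days (adjusted p = 0.317) and fell after 6 days (log2 fold change -0.28, SE 0.085, adjusted p = 0.00954). Without 6-day replicate 2 the log2 fold change was -0.21 and the call was lost (adjusted p = 0.0853), and the adjusted p lay between 0.00219 and 0.0853 over 20 alternatives. COL1A2 stood at 1866, 1816 and 1783 CPM in the control libraries, 2320, 2212 and 2335 CPM after 2 days, 1932, 1971 and 1684 CPM after 4 days and 1804, 1646 and 1704 CPM after 6 days. It rose after 2 days (log2 fold change 0.33, SE 0.076, adjusted p = 0.000902) and came back to the range of the control, with adjusted p = 0.785 and 0.392 after 4 and 6 days.

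Type III collagen is a trimer of COL3A1 chains and is found with type I in distensible tissue. COL3A1 stood at 964, 877 and 943 CPM in the control libraries, 1193, 1111 and 1270 CPM after 2 days, 529.8, 535 and 466 CPM after 4 days and 560.2, 495 and 519 CPM after 6 days. Its 2-day libraries lay above the control and its 4-day and 6-day libraries below it, with no overlap in either direction. COL3A1 rose after 2 days (log2 fold change 0.36, SE 0.079, adjusted p = 0.000575) and fell after 4 days (log2 fold change -0.86, SE 0.08, adjusted p = 4.87e-09) and 6 days (log2 fold change -0.82, SE 0.08, adjusted p = 7.35e-09). The direct comparison of 4 with 2 days gave a log2 fold change of -1.22 (SE 0.081, adjusted p = 2.28e-11).

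Type V collagen sets the diameter of type I fibrils, and its COL5A1 and COL5A2 chains went apart. COL5A1 stood at 396, 376 and 385 CPM in the control libraries, 969.8, 991 and 1034 CPM after 2 days, 419.6, 451 and 435 CPM after 4 days and 389.8, 354 and 405 CPM after 6 days. It rose 2.59-fold after 2 days (log2 fold change 1.37, SE 0.074, adjusted p = 1.22e-13), and the 6-day libraries overlapped the control. After 4 days COL5A1 missed the threshold (adjusted p = 0.065), and among 20 alternatives DESeq2 alone called it (adjusted p = 0.0351 there, 0.0351 to 0.169 over all). COL5A2 stood at 1682, 1428 and 1542 CPM in the control libraries, 1472, 1508 and 1536 CPM after 2 days, 807, 861 and 678 CPM after 4 days and 626, 611 and 581 CPM after 6 days. The 2-day libraries of COL5A2 lay within the control range, and the 4-day and 6-day libraries lay far below it. COL5A2 fell by 0.99 on the log2 scale after 4 days (SE 0.085, adjusted p = 1.35e-09) and by 1.36 after 6 days (SE 0.086, adjusted p = 2.96e-12). COL5A3, a chain of low level here, stood at 0.341, 0.525 and 0.661 CPM in the control libraries, 1.41, 1.44 and 1.44 CPM after 2 days, 0.396, 0.360 and 0.329 CPM after 4 days and 0.244, 0.0545 and 0.0463 CPM after 6 days. It rose after 2 days (log2 fold change 1.49, SE 0.41, adjusted p = 0.00407) and fell after 6 days (log2 fold change -2.15, SE 0.61, adjusted p = 0.00597), when only 6 counts remained over the 3 libraries.

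COL11A1 encodes a chain of type XI collagen, which forms the core of thin fibrils. COL11A1 stood at 285, 264 and 275 CPM in the control libraries, 125, 132 and 126 CPM after 2 days, 75.2, 86.0 and 51.3 CPM after 4 days and 51.8, 50.2 and 50.9 CPM after 6 days. Every exposed library lay below every control library. COL11A1 fell by 1.10 on the log2 scale after 2 days (SE 0.12, adjusted p = 1.04e-07), by 1.96 after 4 days (SE 0.12, adjusted p = 4.08e-11) and by 2.43 after 6 days (SE 0.12, adjusted p = 1.07e-12). The step from 4 to 6 days passed the threshold (adjusted p = 0.0203) although the libraries overlapped, and in 7 of 20 alternatives it did not, with adjusted p between 4.86e-05 and 0.115. It was lost without any 1 of 4-day replicates 1 and 2 and 6-day replicates 1, 2 and 3, at adjusted p = 0.0938, 0.115, 0.0625, 0.085 and 0.0674 in that order.

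COL27A1 encodes the chain of type XXVII collagen, a fibrillar collagen known from cartilage. COL27A1 stood at 15.4, 16.2 and 15.9 CPM in the control libraries, 124, 137 and 128 CPM after 2 days, 41.2, 48.7 and 49.2 CPM after 4 days and 43.9, 44.1 and 49.1 CPM after 6 days. The control libraries were the lowest, the 2-day libraries the highest, and the 4-day and 6-day libraries overlapped each other between them. It rose 8.20-fold after 2 days (log2 fold change 3.04, SE 0.095, adjusted p = 5.59e-18) and stayed raised after 4 days (log2 fold change 1.55, SE 0.095, adjusted p = 2.27e-12) and 6 days (log2 fold change 1.53, SE 0.095, adjusted p = 1.82e-12). Of 5 markers of chondrocytes, the cells of cartilage, the 3 that were tested rose at each exposure, beside 23.8, 18.8 and 22.0% of all genes called higher. HAPLN1, 1 of the 3, stood at 0.258 CPM in the control and 2.85, 1.57 and 1.33 CPM after 2, 4 and 6 days. It passed the low-count filter only through exposed libraries, where it stood high, so its calls are not separate support. Among them was the transcription factor SOX9, at 9.23 CPM in the control and 28.0, 21.9 and 26.0 CPM at 2, 4 and 6 days. From 2 to 4 days the log2 fold change was -1.484 for COL27A1 and -0.355 for SOX9, both called. It was -0.871 for HAPLN1 and -0.083 for MATN3, neither called. The summed level of the 5 markers was 19.4 to 24.7 CPM in the control libraries and 45.9 to 61.1 CPM in the exposed ones. The cartilage genes ACAN and COMP stayed at or under 0.202 CPM, and the part of these genes in the result was not tested.

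The remaining fibrillar chains were scarce. COL11A2 and COL24A1 lay between 1.94 and 2.58 CPM on average in all 4 groups and passed the threshold in none of the comparisons. COL2A1, the chain of cartilage type II collagen, had 22 counts in all 12 libraries and was not tested. Over the class, 6 of 10 tested fibrillar chains were higher and 1 lower after 2 days, 1 higher and 3 lower after 4 days, and 1 higher and 5 lower after 6 days. Over all genes the shares called higher and lower were 23.8 and 23.4% after 2 days, 18.8 and 17.7% after 4 days and 22.0 and 21.7% after 6 days. The median log2 fold change of the tested fibrillar chains was 0.34, -0.05 and -0.34 at the 3 exposures.

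**Figure D3:**
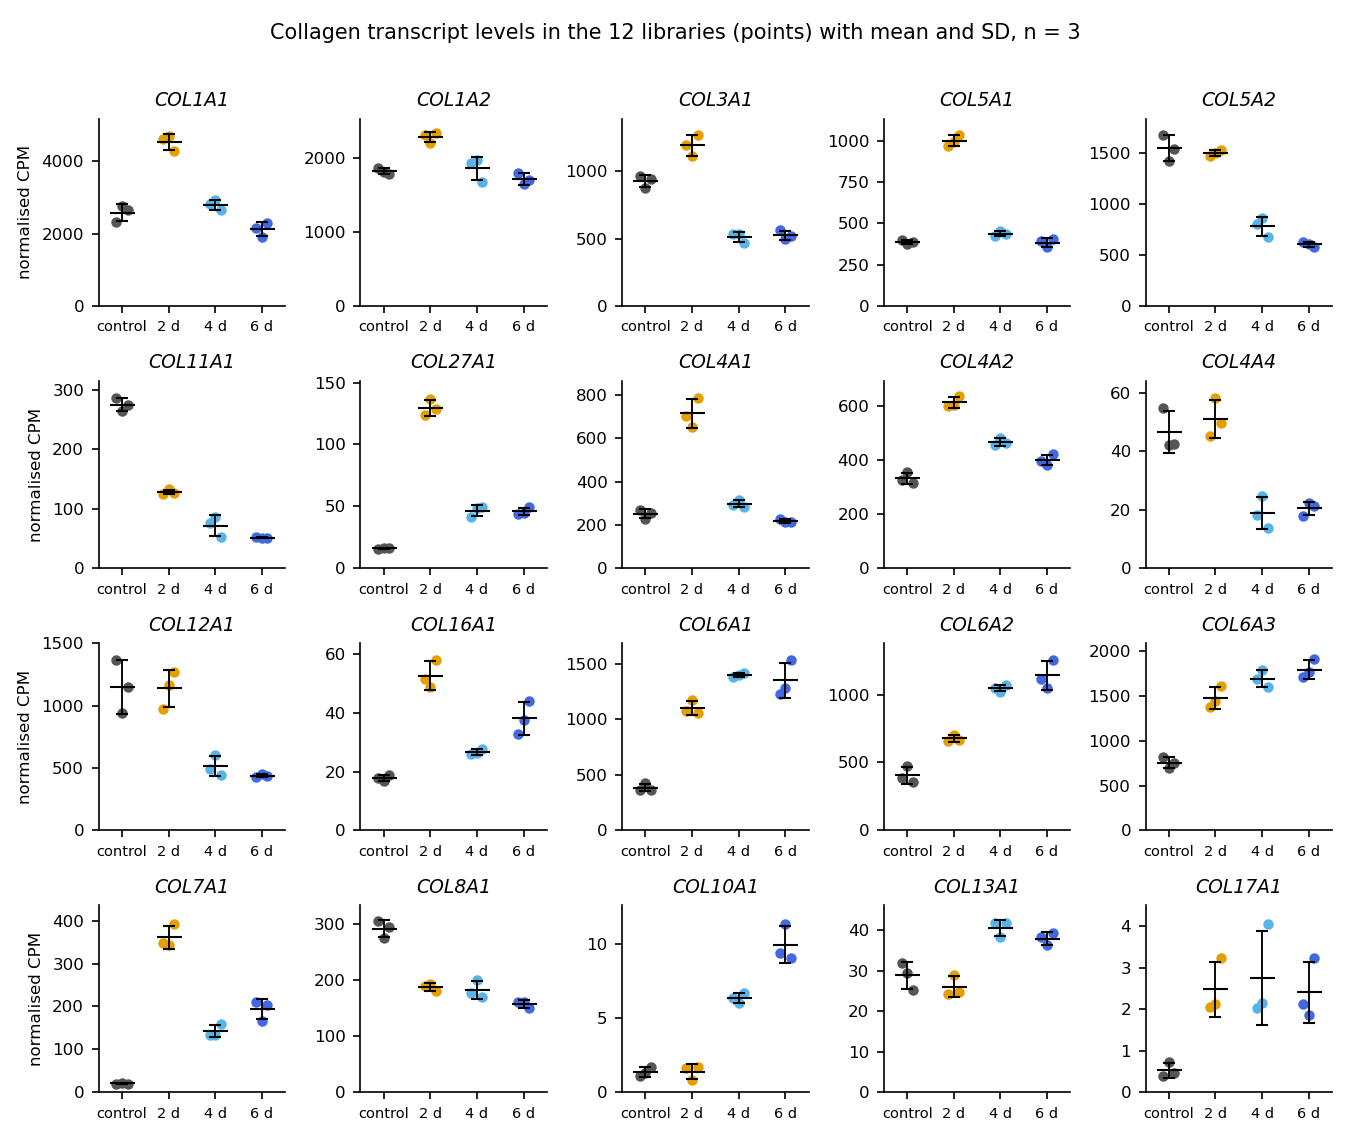
Normalised CPM (vertical axes, from 0) of 20 collagen genes in the 4 groups (horizontal axes); points are single libraries, with the mean and SD over 3. COL1A1, COL5A1, COL27A1, COL4A1 and COL7A1 peak after 2 days, COL5A2, COL12A1 and COL4A4 drop between 2 and 4 days, and COL6A1, COL6A2 and COL6A3 stand above the control at all 3 exposures.

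Among FACIT collagens, COL12A1 carried nearly all of the level. COL12A1, the chain of type XII collagen on the surface of type I fibrils, stood at 1370, 938 and 1152 CPM in the control libraries, 978, 1170 and 1268 CPM after 2 days, 495, 602 and 447 CPM after 4 days and 424, 449 and 436 CPM after 6 days. The 2-day libraries overlapped the control, which itself was spread widely, and all 6 libraries of the longer exposures lay below both. COL12A1 fell by 1.16 on the log2 scale after 4 days (SE 0.13, adjusted p = 8.14e-07) and by 1.40 after 6 days (SE 0.13, adjusted p = 5.43e-08). COL3A1, COL5A2 and COL12A1 thus all fell at the longer exposures. COL3A1 and COL5A2 lie on opposite strands of chromosome 2, at chr2:188974320-189012746 and chr2:189031896-189225312 in GRCh38 (GENCODE release 29), and COL12A1 lies on chromosome 6.

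COL16A1, the chain of type XVI collagen, stood at 17.9, 16.7 and 18.7 CPM in the control libraries, 51.5, 48.8 and 58.2 CPM after 2 days, 26.0, 26.4 and 27.7 CPM after 4 days and 32.8, 37.7 and 44.2 CPM after 6 days. All exposed libraries lay above the control, with the 2-day libraries highest. COL16A1 rose 2.97-fold after 2 days (log2 fold change 1.57, SE 0.11, adjusted p = 1.34e-11), 1.5-fold after 4 days (log2 fold change 0.59, SE 0.11, adjusted p = 0.000166) and 2.16-fold after 6 days (log2 fold change 1.11, SE 0.11, adjusted p = 8.57e-09). It was one of the 6 genes that rose again from 4 to 6 days (log2 fold change 0.52, SE 0.1, adjusted p = 0.00303).

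COL9A3, a chain of type IX collagen of cartilage, was almost absent from the control, with 5 counts over 3 libraries. COL9A3 stood at 0.0568, 0.131 and 0.132 CPM in the control libraries, 1.51, 2.12 and 1.74 CPM after 2 days, 0.339, 0.900 and 0.659 CPM after 4 days and 0.548, 0.545 and 0.232 CPM after 6 days. The exposed libraries all lay above the control. Its normalised counts were 16.9 times the control after 2 days (95% exact interval of the counts 6.98 to 53.3), 6.02 times after 4 days (2.34 to 19.8) and 4.09 times after 6 days (1.53 to 13.7), where the intervals cover counting error only. The test called it at 2 days (adjusted p = 1.15e-06), 4 days (adjusted p = 0.00259) and 6 days (adjusted p = 0.0182). COL9A3 passed the low-count filter only through exposed libraries, where it stood high, so these calls are not separate support. The 6-day call was lost without control replicate 1, 6-day replicate 1 or 6-day replicate 2 (adjusted p = 0.0805, 0.0588 and 0.0643), and its adjusted p ran from 0.00842 to 0.0805 over 19 alternatives. Exons of COL9A3 share 0.93% of their bases with TCFL5 on the opposite strand, which averaged 29.8 CPM. TCFL5 fell by 0.63 on the log2 scale after 2 days (SE 0.1, adjusted p = 1.42e-05). Whether reads of COL9A3 and TCFL5 were told apart there is not known.

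COL21A1, the chain of type XXI collagen, stood at 0.397, 0.197 and 0.198 CPM in the control libraries, 0.857, 0.479 and 0.360 CPM after 2 days, 0.339, 0.660 and 0.988 CPM after 4 days and 1.10, 0.709 and 0.787 CPM after 6 days. The groups overlapped except the control and 6 days, where COL21A1 rose (log2 fold change 1.64, SE 0.52, adjusted p = 0.0124). That call was lost without control replicate 3 or 6-day replicate 1 (adjusted p = 0.0517 and 0.0529, range 0.00937 to 0.0529 over 19 alternatives). A call at 4 days appeared without 4-day replicate 1 (adjusted p = 0.0323) and in none of the other alternatives (0.0323 to 0.317 over 18). Of the other FACIT chains, COL14A1 rose after 2 days, from a mean of 0.588 to 1.60 CPM (log2 fold change 1.43, SE 0.39, adjusted p = 0.00408), a call lost without control replicate 2 and 2-day replicate 3 together (adjusted p = 0.0652, range 0.000852 to 0.0652 over 20 alternatives). At 4 and 6 days COL14A1 was called higher without control replicate 3 (adjusted p = 0.0348 and 0.0306) and in no other alternative (up to 0.491 and 0.495). COL9A2 rose after 2 days (log2 fold change 0.63, SE 0.2, adjusted p = 0.0131) and 6 days (log2 fold change 0.67, SE 0.2, adjusted p = 0.00929), and without control replicate 1 neither call held (adjusted p = 0.109 and 0.0832, ranges 0.00118 to 0.109 and 0.00139 to 0.0832). The 2-day call of COL9A2 was also lost without 2-day replicate 1 (adjusted p = 0.0826). COL9A1, COL19A1, COL20A1 and COL22A1 had 10, 50, 25 and 7 counts over all libraries and did not pass the low-count filter. COL19A1, the chain of type XIX collagen, had 0 counts in each control library, 0, 0 and 5 after 2 days, 0, 8 and 14 after 4 days, and 3, 13 and 7 after 6 days. With the 3 control libraries together set to the limit that a count of 0 allows (3 counts), the ratio to the control was 6.69 after 4 days and 6.53 after 6 days. These ratios treat the exposed counts as exact, although they ran from 0 to 14 among the 4-day libraries and from 3 to 13 among the 6-day libraries. Exons of COL19A1 share 0.822% of their bases with LMBRD1 on the opposite strand, which averaged 21.9 CPM. The log2 fold change of LMBRD1 was -0.72, -0.10 and -0.30 after 2, 4 and 6 days. Whether reads of COL19A1 and LMBRD1 were told apart there is not known, and the part of LMBRD1 in these counts was not tested. Of the 20 alternatives, 12 tested COL19A1. These were the fit without a low-count filter and fits with left-out libraries that kept 4-day replicate 3 and 6-day replicate 2. Leaving out a library made the smallest group smaller, so the filter asked for fewer libraries over its minimum. Those 2 libraries held its most counts, so among the fits with left-out libraries the filter chose those in which it stood high. All 12 called it higher at both exposures (adjusted p 0.000316 to 0.0497 and 0.000262 to 0.0432, the lowest without a low-count filter). Because of that choice, their number is not separate support. COL19A1 is described after its values were seen.

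Of all genes 23.8 and 23.4% were called higher and lower after 2 days, 18.8 and 17.7% after 4 days, and 22.0 and 21.7% after 6 days. As a class, 4 of 6 tested FACIT chains were higher and 0 lower after 2 days, 2 higher and 1 lower after 4 days, and 4 higher and 1 lower after 6 days. The 1 lower chain was COL12A1, which carried most of the summed FACIT level. That sum was 1180 ± 216 CPM in the control and 483 ± 15.4 CPM after 6 days (SD, n = 3).

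Type IV collagen is built from 6 chains whose genes lie in head-to-head pairs, each pair sharing a start region. By the RefSeq start sites of GRCh38.p14, 126 bases lie between COL4A1 and COL4A2 on chromosome 13, 418 between COL4A3 and COL4A4 on chromosome 2, and 379 between COL4A5 and COL4A6 on the X chromosome. COL4A1 and COL4A2 form the trimer found in nearly all basement membranes. COL4A1 stood at 270.5, 229 and 253 CPM in the control libraries, 705, 655 and 789 CPM after 2 days, 292, 316 and 284 CPM after 4 days and 228, 214 and 213 CPM after 6 days. The 2-day libraries were the highest, the 4-day libraries lay slightly above the control, and the 6-day libraries lay just under its lowest library. COL4A1 rose 2.86-fold after 2 days (log2 fold change 1.51, SE 0.084, adjusted p = 2.09e-13). At 4 days COL4A1 was called higher (log2 fold change 0.25, SE 0.083, adjusted p = 0.0215), but not without control replicate 2, control replicate 3 or 4-day replicate 2 (adjusted p = 0.0766, 0.0501 and 0.0937), nor with library totals alone (0.0511), with a range of 0.0124 to 0.0937 over 20 alternatives. At 6 days it was not called (adjusted p = 0.0553), and it was called lower without control replicate 2 or without 2-day replicate 3 (adjusted p = 0.00956 and 0.0461, range 0.00446 to 0.215).

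COL4A2 stood at 328, 356 and 316 CPM in the control libraries, 603, 605 and 639 CPM after 2 days, 456, 482 and 463 CPM after 4 days and 399, 384 and 422 CPM after 6 days. Every exposed library lay above every control library. COL4A2 rose after 2 days (log2 fold change 0.89, SE 0.073, adjusted p = 3.84e-10), 4 days (log2 fold change 0.49, SE 0.073, adjusted p = 9.48e-06) and 6 days (log2 fold change 0.27, SE 0.073, adjusted p = 0.00424). The pair thus differed at 6 days, when COL4A2 was called higher and COL4A1 lay just under the control range. The difference between the 2 genes was not tested.

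COL4A4 stood at 54.9, 42.2 and 42.5 CPM in the control libraries, 45.4, 58.3 and 49.8 CPM after 2 days, 18.3, 24.7 and 13.6 CPM after 4 days and 18.0, 22.3 and 21.2 CPM after 6 days. The control and 2-day libraries overlapped, and the 4-day and 6-day libraries lay well below both. COL4A4 fell by 1.31 on the log2 scale after 4 days (SE 0.17, adjusted p = 1.21e-05) and by 1.18 after 6 days (SE 0.17, adjusted p = 2.35e-05). Its head-to-head partner COL4A3 fell after 4 days, from 8.21 to 5.16 CPM (log2 fold change -0.67, SE 0.17, adjusted p = 0.00282), and not after 6 days (adjusted p = 0.0672). With COL4A5, the 2 genes encode the trimer of kidney, ear and eye basement membranes.

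COL4A5 stood at 149, 127 and 145 CPM in the control libraries, 195, 214 and 230.1 CPM after 2 days, 144, 159 and 141 CPM after 4 days and 193, 189 and 175 CPM after 6 days. The 2-day and 6-day libraries lay above the control, and the 4-day libraries overlapped it. COL4A5 rose after 2 days (log2 fold change 0.60, SE 0.083, adjusted p = 1.75e-06) and 6 days (log2 fold change 0.41, SE 0.083, adjusted p = 0.000313), with adjusted p = 0.498 after 4 days. The rise from 4 to 6 days (log2 fold change 0.33, SE 0.083, adjusted p = 0.0169) was lost without 4-day replicate 1, 4-day replicate 3, 6-day replicate 1 or 6-day replicate 2 (adjusted p = 0.0896, 0.0815, 0.0877 and 0.0763, range 0.00134 to 0.0896). Its partner COL4A6 rose from 9.29 CPM to 17.1 CPM after 2 days (log2 fold change 0.87, SE 0.14, adjusted p = 1.22e-05) and 18.8 CPM after 6 days (log2 fold change 1.01, SE 0.14, adjusted p = 1.46e-06). At 4 days COL4A6 was called higher at adjusted p = 0.0393, and 8 of 20 alternatives did not call it (0.0105 to 0.171), among them the fits without control replicate 2 or 3 (adjusted p = 0.0919 and 0.171) and without 4-day replicate 1, 2 or 3 (0.0532, 0.0549 and 0.138). Over the class, 4 chains were higher and 0 lower after 2 days, 3 higher and 2 lower after 4 days, and 3 higher and 1 lower after 6 days. The shares of all genes called higher and lower were 23.8 and 23.4%, 18.8 and 17.7%, and 22.0 and 21.7%.

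Type VI collagen, which links cells to the surrounding matrix, rose at every exposure in its 3 main chains. COL6A1 stood at 363, 425 and 367 CPM in the control libraries, 1073, 1176 and 1057 CPM after 2 days, 1377, 1401 and 1420 CPM after 4 days and 1231, 1286 and 1532 CPM after 6 days. COL6A1 rose 2.86-fold after 2 days (log2 fold change 1.52, SE 0.088, adjusted p = 4.67e-13), 3.64-fold after 4 days (log2 fold change 1.86, SE 0.089, adjusted p = 2.06e-14) and 3.51-fold after 6 days (log2 fold change 1.81, SE 0.089, adjusted p = 2e-14). COL6A2, its neighbour on chromosome 21, stood at 386, 477 and 354 CPM in the control libraries, 660.3, 706 and 666 CPM after 2 days, 1053, 1024 and 1074 CPM after 4 days and 1117, 1053 and 1257 CPM after 6 days. COL6A2 rose 1.67-fold, 2.59-fold and 2.82-fold (log2 fold changes 0.74, 1.37 and 1.5, SE 0.092, 0.093 and 0.093, adjusted p = 3.5e-07, 1.58e-11 and 2.13e-12). COL6A3, the largest of the chains, stood at 816, 698 and 757 CPM in the control libraries, 1373, 1450 and 1609 CPM after 2 days, 1687, 1792 and 1608 CPM after 4 days and 1709, 1766 and 1914 CPM after 6 days. COL6A3 rose 1.95-fold, 2.24-fold and 2.37-fold (log2 fold changes 0.96, 1.16 and 1.25, SE 0.083 each, adjusted p = 6.75e-10, 4.07e-11 and 7.4e-12). For all 3 chains every exposed library lay above every control library. From 2 to 4 days COL6A1 (log2 fold change 0.34, SE 0.086, adjusted p = 0.00269) and COL6A2 (log2 fold change 0.63, SE 0.092, adjusted p = 6.59e-06) rose further. COL6A3 did not pass the threshold in that step (adjusted p = 0.0622), and 5 of 20 alternatives called it higher (0.00662 to 0.272), among them those without control replicate 2, 2-day replicate 3 or 4-day replicate 3 (adjusted p = 0.0243, 0.0295 and 0.0439). COL6A6 lay between 1.01 and 2.31 CPM on average and was called in no comparison with the control, and COL6A5, with 24 counts in all, did not pass the low-count filter. COL6A5 had 0 counts over the control libraries and 4, 4 and 16 after 2, 4 and 6 days. The fit with no low-count filter called it higher after 6 days (adjusted p = 0.0077).

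COL7A1, whose product forms the anchoring fibrils that tie basement membranes to the tissue below, had the largest change of any collagen gene among those that reached 20 CPM in some group. COL7A1 stood at 19.4, 22.3 and 20.7 CPM in the control libraries, 349, 344 and 392 CPM after 2 days, 134, 135 and 159.7 CPM after 4 days and 211, 167 and 203 CPM after 6 days. The 4 groups did not overlap one another: the control was lowest, then 4 days, then 6 days, then 2 days. COL7A1 rose 17.4-fold after 2 days (log2 fold change 4.12, SE 0.11, adjusted p = 2.12e-19), 6.86-fold after 4 days (log2 fold change 2.78, SE 0.1, adjusted p = 2.63e-16) and 9.32-fold after 6 days (log2 fold change 3.22, SE 0.11, adjusted p = 1.27e-17). It fell from 2 to 4 days (log2 fold change -1.34, SE 0.093, adjusted p = 6.06e-11) and rose from 4 to 6 days (log2 fold change 0.44, SE 0.092, adjusted p = 0.00419). Its share of the summed collagen level went from 0.182% in the control to 2.07% after 2 days, 1.14% after 4 days and 1.68% after 6 days. The start region printed above for COL7A1 is the only one of the 3 with a match to TATAAA.

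Among the short-chain, network-forming collagens, type VIII chains fell and the type X chain rose. COL8A1, a chain of type VIII collagen of vessels and heart, stood at 305, 275 and 294 CPM in the control libraries, 189, 194 and 180.5 CPM after 2 days, 177, 199.96 and 170.2 CPM after 4 days and 161, 161 and 149.5 CPM after 6 days. All exposed libraries lay below the control. COL8A1 fell by 0.64 on the log2 scale after 2 days (SE 0.077, adjusted p = 2.58e-07), by 0.68 after 4 days (SE 0.077, adjusted p = 1.61e-07) and by 0.89 after 6 days (SE 0.078, adjusted p = 1.16e-09). Its partner chain COL8A2, at 12.0 CPM in the control, fell after 2 days (log2 fold change -0.63, SE 0.16, adjusted p = 0.00252) and 6 days (log2 fold change -0.55, SE 0.16, adjusted p = 0.00733). At 4 days COL8A2 was called lower with overlapping libraries (adjusted p = 0.0216), and 5 of 20 alternatives did not call it (0.00754 to 0.175), among them those without control replicate 1, control replicate 2 or 4-day replicate 3 (adjusted p = 0.0804, 0.0565 and 0.175).

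COL10A1, the chain of type X collagen, known from hypertrophic cartilage, stood at 1.08, 1.31 and 1.72 CPM in the control libraries, 1.66, 0.822 and 1.68 CPM after 2 days, 6.33, 6.00 and 6.70 CPM after 4 days and 9.38, 11.3 and 9.03 CPM after 6 days. The control and 2-day libraries overlapped, and the later exposures stepped upward without overlap. COL10A1 rose 4.65-fold after 4 days (log2 fold change 2.22, SE 0.23, adjusted p = 2.29e-08) and 7.26-fold after 6 days (log2 fold change 2.86, SE 0.22, adjusted p = 8.59e-11), with adjusted p = 0.874 after 2 days. The 6-day level exceeded the 4-day level (log2 fold change 0.64, SE 0.17, adjusted p = 0.0243), a call lost without 4-day replicate 1, 2 or 3 (adjusted p = 0.0911, 0.0777 and 0.0561) or without 6-day replicate 1 or 2 (adjusted p = 0.0612 and 0.156), with a range of 0.00315 to 0.156 over 20 alternatives.

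The transmembrane collagens span the cell membrane and can be shed from it. COL13A1 stood at 32.0, 29.4 and 25.3 CPM in the control libraries, 24.3, 29.02 and 24.7 CPM after 2 days, 41.9, 38.4 and 41.7 CPM after 4 days and 38.3, 36.2 and 39.3 CPM after 6 days. The 2-day libraries overlapped the control, and the 4-day and 6-day libraries lay above both. COL13A1 rose after 4 days (log2 fold change 0.49, SE 0.1, adjusted p = 0.000363) and 6 days (log2 fold change 0.39, SE 0.1, adjusted p = 0.00244). At 2 days COL13A1 was not called (adjusted p = 0.224), and with library totals alone, where the median of all genes was -0.14, it was called lower (adjusted p = 0.029, range 0.029 to 0.628 over 20 alternatives).

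COL17A1, a hemidesmosome collagen of epithelia, stood at 0.397, 0.722 and 0.462 CPM in the control libraries, 2.07, 2.12 and 3.24 CPM after 2 days, 2.04, 2.16 and 4.06 CPM after 4 days and 2.13, 1.85 and 3.24 CPM after 6 days. All exposed libraries lay above the control and the 3 exposed groups overlapped one another. COL17A1 rose 4.68-fold after 2 days (log2 fold change 2.23, SE 0.38, adjusted p = 3.18e-05), 5.23-fold after 4 days (log2 fold change 2.39, SE 0.37, adjusted p = 1.73e-05) and 4.61-fold after 6 days (log2 fold change 2.21, SE 0.38, adjusted p = 3.98e-05). The 6 epithelial markers summed to 94.9 to 128 CPM in the control libraries, 254 to 279 CPM after 2 days, 87.2 to 114 CPM after 4 days and 83.2 to 89.9 CPM after 6 days, with the keratin KRT18 as their most abundant member, and EPCAM stayed at or under 0.556 CPM on average. Of the 6, 3 rose and 1 fell after 2 days, and 1 rose and 2 fell at each longer exposure. The shares of all genes called higher and lower were 23.8 and 23.4% after 2 days, 18.8 and 17.7% after 4 days, and 22.0 and 21.7% after 6 days. The part of the epithelial markers in the COL17A1 result was not tested.

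COL25A1, a transmembrane collagen of neurons and muscle, had 3 counts over the control libraries. COL25A1 stood at 0.114, 0.0 and 0.0661 CPM in the control libraries, 0.504, 0.411 and 0.961 CPM after 2 days, 0.396, 1.02 and 0.220 CPM after 4 days and 0.426, 0.872 and 0.556 CPM after 6 days. Its normalised counts were 10.0 times the control after 2 days (95% exact interval of the counts 3.13 to 51.1), 8.52 times after 4 days (2.63 to 43.8) and 9.93 times after 6 days (3.13 to 50.5). The test called it at 2 days (adjusted p = 0.00225), 4 days (adjusted p = 0.00662) and 6 days (adjusted p = 0.00247), and the 4-day call was lost without 4-day replicate 2 (adjusted p = 0.0725, range 0.00213 to 0.0725 over 18 alternatives). COL25A1 passed the low-count filter only through exposed libraries, where it stood high, so these calls are not separate support.

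The multiplexins, collagens with many interruptions whose ends can be cut off as endostatin and related fragments, are COL18A1 and COL15A1. COL18A1 stood at 20.7, 25.7 and 16.7 CPM in the control libraries, 22.6, 24.8 and 25.0 CPM after 2 days, 22.8, 29.2 and 25.0 CPM after 4 days and 30.0, 25.0 and 30.4 CPM after 6 days. The groups overlapped in every comparison. COL18A1 was called higher after 6 days (log2 fold change 0.44, SE 0.13, adjusted p = 0.00782), a call lost without control replicate 3 (adjusted p = 0.078, range 0.000153 to 0.078 over 20 alternatives). Without control replicate 2 it was also called higher at 2 and 4 days (adjusted p = 0.0182 and 0.00406, ranges 0.0182 to 0.767 and 0.00406 to 0.436). Its exons share 16.4% of their bases with SLC19A1 on the opposite strand, which averaged 12.3 CPM. SLC19A1 fell at all 3 exposures (log2 fold changes -0.42, -0.53 and -0.76). Whether reads of COL18A1 and SLC19A1 were told apart there is not known. COL15A1 stood at 2.52 CPM in the control and fell after 4 days, to 1.08 CPM (log2 fold change -1.23, SE 0.3, adjusted p = 0.0022), and after 6 days, to 1.12 CPM (log2 fold change -1.17, SE 0.29, adjusted p = 0.00235). COL23A1, COL26A1 and COL28A1, with 7, 7 and 64 counts in all, were not tested.

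Of all genes 23.8 and 23.4% were called higher and lower after 2 days, 18.8 and 17.7% after 4 days, and 22.0 and 21.7% after 6 days. Over the 13 tested genes outside the fibrillar, basement membrane and FACIT classes, 6 were higher and 2 lower after 2 days, 8 and 3 after 4 days, and 9 and 3 after 6 days. Their median log2 fold change was 0.52, 1.16 and 1.25, where the fibrillar median ended at -0.34.

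Ratios between chains of 1 trimer lay apart from the control in some pairs and exposures and overlapped it in others. The ratio of COL1A1 to COL1A2 levels was 1.24 to 1.53 in the control libraries, 1.83 to 2.12 after 2 days, 1.46 to 1.58 after 4 days and 1.16 to 1.35 after 6 days. The ratio of COL4A1 to COL4A2 was 0.641 to 0.825 in the control, 1.08 to 1.23 after 2 days, 0.613 to 0.656 after 4 days and 0.505 to 0.572 after 6 days. In both pairs the 2-day libraries lay above all others, and the 4-day libraries overlapped the control. The ratio of COL5A1 to COL5A2 was 0.235 to 0.263 in the control, 0.657 to 0.673 after 2 days, 0.520 to 0.642 after 4 days and 0.579 to 0.696 after 6 days. It lay above the control at all 3 exposures, with a rise of COL5A1 after 2 days and a fall of COL5A2 after 4 and 6 days.

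The ratio of COL6A1 to COL6A2 was 0.891 to 1.04 in the control and 1.59 to 1.67, 1.31 to 1.37 and 1.10 to 1.22 after 2, 4 and 6 days, so the groups did not overlap. The ratio of COL4A3 to COL4A4 was 0.143 to 0.207 in the control, 0.135 to 0.178 after 2 days, where it overlapped the control, and 0.229 to 0.310 and 0.278 to 0.324 after 4 and 6 days. The ratio of COL4A5 to COL4A6 was 13.4 to 17.9 in the control, 12.2 to 12.8 after 2 days, 10.8 to 13.6 after 4 days, where it overlapped the control, and 8.73 to 11.9 after 6 days. The ratio of COL8A1 to COL8A2 overlapped among the groups, at 21.2 to 29.5 in the control and 18.2 to 21.4 after 6 days. These are ratios of normalised counts, not divided by length, so the direction between groups can be read from them and the number of molecules of each chain cannot. No ratio was tested.

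**Figure D4:**
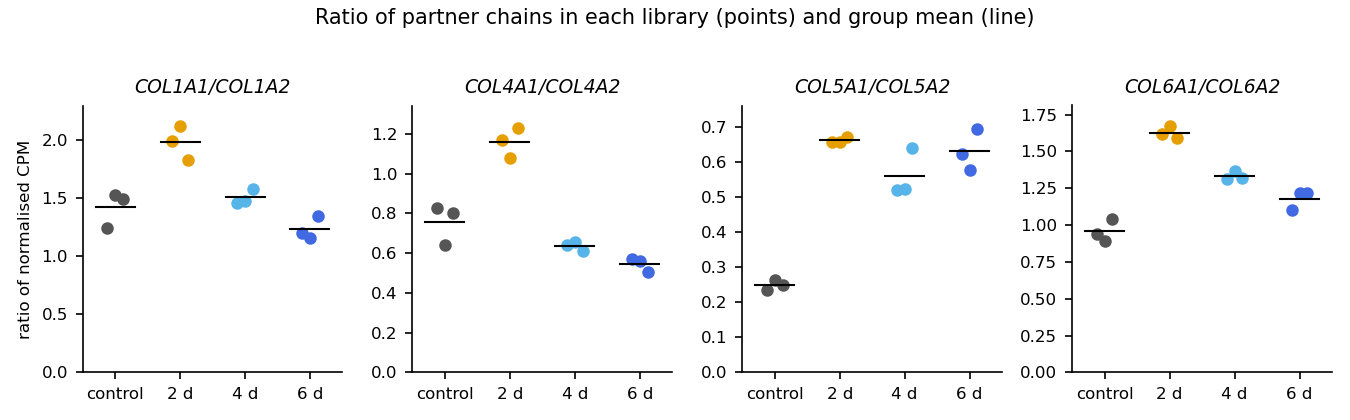
Ratio of the normalised CPM of 2 chains of the same trimer (vertical axes, from 0) in each library (points) with the group mean (line), for the control and 2, 4 and 6 days of exposure (horizontal axes). COL1A1 to COL1A2 and COL4A1 to COL4A2 peak after 2 days, and COL5A1 to COL5A2 moves from 0.235 to 0.263 in the control to 0.520 or more in every exposed library.

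To compare levels between genes, CPM was divided by the length of all exons of a gene in GENCODE release 29, in kilobases. On this scale COL1A1 led in the control at 263 ± 24.0 CPM per kb (SD, n = 3), followed by COL5A2 at 208 ± 17.0, COL1A2 at 163 ± 3.74 and COL3A1 at 136 ± 6.69, and the libraries of these 4 genes did not overlap. COL6A1 and COL6A2 stood at 72.0 ± 6.52 and 75.3 ± 11.9 in the control and did not differ beyond their spread. After 6 days the order was COL6A1 at 253 ± 30.0, COL1A1 at 217 ± 20.1, COL6A2 at 212 ± 19.4 and COL1A2 at 154 ± 7.16, where neighbours among the first 3 overlapped in their libraries. COL5A2 had come down to 81.3 ± 3.04 and COL3A1 to 77.0 ± 4.82. With the longest transcript as the length, COL1A2 stood above COL5A2 in the control, at 304 ± 6.97 against 219 ± 17.9 CPM per kb. COL1A1 was first there too. On that length the top 3 after 6 days were COL6A2 at 330 ± 30.2, COL6A1 at 319 ± 37.8 and COL1A1 at 316 ± 29.3. The order of COL1A2 and COL5A2 in the control and the order among these 3 after 6 days therefore depend on the length used, and COL6A1 and COL6A2 were among them under both lengths, where both stood below COL3A1 in the control.

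A collagen chain is hydroxylated and folded in the endoplasmic reticulum, secreted, trimmed, and crosslinked outside the cell, where receptors bind it. For the lists of partner genes that follow, the shares of all genes called higher and lower were 23.8 and 23.4% after 2 days, 18.8 and 17.7% after 4 days, and 22.0 and 21.7% after 6 days, and no list was tested as a whole. Of 20 genes of chain modification and folding, 6 were higher and 6 lower after 2 days, 8 and 1 after 4 days, and 8 and 2 after 6 days. The 2-day counts lay near the shares over all genes. P4HA2, a catalytic subunit of prolyl 4-hydroxylase, stood at 108 ± 4.07 CPM in the control (SD, n = 3) and 254 ± 11.1, 306 ± 22.0 and 303 ± 11.8 CPM after 2, 4 and 6 days and rose at each exposure (log2 fold changes 1.23, 1.5 and 1.49, SE 0.077, 0.077 and 0.077, adjusted p = 1.86e-12, 7.74e-14 and 6.12e-14). SERPINH1, which encodes the collagen chaperone HSP47, stood at 194 ± 25.8 CPM in the control (SD, n = 3) and 151 ± 6.85, 82.4 ± 6.35 and 71.0 ± 3.10 CPM after 2, 4 and 6 days and fell at each exposure (log2 fold changes -0.36, -1.24 and -1.45, SE 0.088, 0.09 and 0.09, adjusted p = 0.00143, 5.43e-11 and 1.89e-12). P3H2, a prolyl 3-hydroxylase, rose from 52.3 ± 1.78 to 115 ± 4.54 CPM after 2 days (log2 fold change 1.13, SE 0.082, adjusted p = 2.97e-11). FKBP10, a prolyl isomerase of the endoplasmic reticulum, rose after 4 and 6 days (log2 fold changes 0.64 and 0.72, adjusted p = 1.42e-06 and 1.77e-07). P4HB, the shared subunit of prolyl 4-hydroxylase, rose at all 3 exposures, most after 4 days, when it stood at 874 ± 29.8 CPM against 557 ± 57.6 CPM in the control (adjusted p = 5.12e-07). TMEM38B, an endoplasmic reticulum ion channel needed for normal collagen processing, fell after 2 days only among the 3 exposures, to 15.7 ± 1.11 from 29.5 ± 4.76 CPM (adjusted p = 7.47e-07).

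Of 12 tested genes of secretion and propeptide cleavage, 2 were higher and 3 lower after 2 days, 2 and 5 after 4 days, and 3 and 4 after 6 days. The shares of all genes were 23.8 and 23.4%, 18.8 and 17.7%, and 22.0 and 21.7%. BMP1, the protease that removes the C-terminal propeptide, stood at 33.7 ± 3.01 CPM in the control (SD, n = 3) and 77.1 ± 3.59, 48.5 ± 2.85 and 46.3 ± 4.48 CPM after 2, 4 and 6 days and rose at each exposure (log2 fold changes 1.20, 0.53 and 0.46, SE 0.094, 0.094 and 0.094, adjusted p = 1.27e-10, 8.64e-05 and 0.000293). ADAMTS2, which removes the N-terminal propeptide, was called at 2 days alone among the 3 exposures, to 70.5 ± 2.51 from 45.6 ± 2.93 CPM (log2 fold change 0.63, SE 0.085, adjusted p = 1.19e-06). MIA3, needed to load procollagen into transport carriers, fell at each exposure (log2 fold changes -0.62, -0.37 and -0.57, SE 0.083, 0.083 and 0.083, adjusted p = 1.01e-06, 0.000989 and 4.57e-06). CREB3L1, a transcription factor of the secretory pathway, fell after 6 days (log2 fold change -0.51, adjusted p = 0.00051). The proteases TLL1 and ADAMTS14, at 1.44 CPM or less on average, fell after 4 days (log2 fold changes -2.00 and -2.09, adjusted p = 0.00123 and 0.00142).

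Of 7 crosslinking enzymes, 6 were higher and 0 lower after 2 days, 5 and 0 after 4 days, and 3 and 0 after 6 days, beside 23.8, 18.8 and 22.0% of all genes called higher. From 4 to 6 days 1 was higher and 3 were lower, beside 3.05 and 3.73% of all genes. TGM2, tissue transglutaminase, stood at 8.28 ± 0.586 CPM in the control (SD, n = 3) and 35.2 ± 2.63, 30.5 ± 3.08 and 39.5 ± 2.97 CPM after 2, 4 and 6 days and rose at each exposure (log2 fold changes 2.09, 1.88 and 2.25, SE 0.11, 0.11 and 0.11, adjusted p = 1.43e-13, 1.83e-12 and 3.11e-14). LOXL4, a lysyl oxidase family member, rose from 8.6 ± 0.878 CPM to 19.0 ± 1.30, 18.7 ± 2.27 and 23.8 ± 2.06 CPM. LOX, the main lysyl oxidase, peaked after 4 days at 1110 ± 59.6 CPM against 676 ± 78.6 CPM in the control (log2 fold change 0.72, SE 0.084, adjusted p = 2.37e-07). LOXL2, LOXL3 and PXDN, the peroxidase that makes the sulfilimine bonds of type IV collagen, rose after 2 days (log2 fold changes 0.55, 0.58 and 0.24, adjusted p = 1.13e-06, 1.79e-05 and 0.0107) and did not pass the threshold after 6 days.

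Of 9 tested collagen receptors, 3 were higher and 1 lower after 2 days, 3 and 2 after 4 days, and 3 and 1 after 6 days. The shares of all genes were 23.8 and 23.4%, 18.8 and 17.7%, and 22.0 and 21.7%. ITGA2, the collagen-binding integrin alpha 2, stood at 42.6 ± 11.4 CPM in the control (SD, n = 3) and 154 ± 21.8, 173 ± 22.6 and 213 ± 6.79 CPM after 2, 4 and 6 days and rose at each exposure (log2 fold changes 1.85, 2.02 and 2.32, SE 0.16, 0.16 and 0.16, adjusted p = 2.37e-07, 1.51e-07 and 2.3e-08). ITGA11, the fibrillar collagen receptor of fibroblasts, rose only after 2 days, to 230 ± 4.35 from 129 ± 5.51 CPM (log2 fold change 0.83, SE 0.081, adjusted p = 6.63e-09), and stood at 133 and 140 CPM after 4 and 6 days. ITGB1, the beta subunit shared by these integrins, rose after 4 and 6 days (log2 fold changes 0.40 and 0.44, adjusted p = 0.000459 and 0.000112). The receptor kinase DDR1 rose after 2 days (adjusted p = 0.00761), DDR2 fell after 4 days (adjusted p = 0.00814), and ADGRG1, a receptor for type III collagen, fell after 4 and 6 days from 2.91 CPM (adjusted p = 0.000237 and 0.00106).

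Of 15 basement membrane partners of type IV collagen, 8 were higher and 5 lower after 2 days, 8 and 3 after 4 days, and 10 and 3 after 6 days. Of all genes 23.8 and 23.4%, 18.8 and 17.7%, and 22.0 and 21.7% were called higher and lower. LAMB3, a laminin chain of the epithelial anchoring complex that binds type VII collagen, stood at 14.3 ± 2.38 CPM in the control (SD, n = 3) and 79.5 ± 3.24, 146 ± 9.54 and 189 ± 17.5 CPM after 2, 4 and 6 days and rose at each exposure (log2 fold changes 2.47, 3.35 and 3.72, SE 0.11, 0.11 and 0.11, adjusted p = 1.96e-15, 1.77e-17 and 2.08e-18). LAMA4, a laminin chain of vessel and muscle basement membranes, stood at 27.8 ± 3.93 CPM in the control (SD, n = 3) and 50.2 ± 2.61, 85.3 ± 8.44 and 204 ± 5.65 CPM after 2, 4 and 6 days and rose at each exposure (log2 fold changes 0.85, 1.61 and 2.87, SE 0.098, 0.098 and 0.099, adjusted p = 1.21e-07, 1.82e-12 and 3.23e-17). LAMC1, the common laminin gamma chain, rose most after 2 days, to 1230 ± 63.1 from 603 ± 28.5 CPM (log2 fold change 1.03, SE 0.074, adjusted p = 2.83e-11). AGRN, the proteoglycan agrin, rose at each exposure (log2 fold changes 1.34, 1.12 and 1.01, SE 0.1, 0.1 and 0.1, adjusted p = 1.6e-10, 6.06e-09 and 2.15e-08). LAMA1 rose after 4 and 6 days (log2 fold changes 0.62 and 0.75, adjusted p = 7.25e-06 and 3.22e-07).

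**Figure D5:**
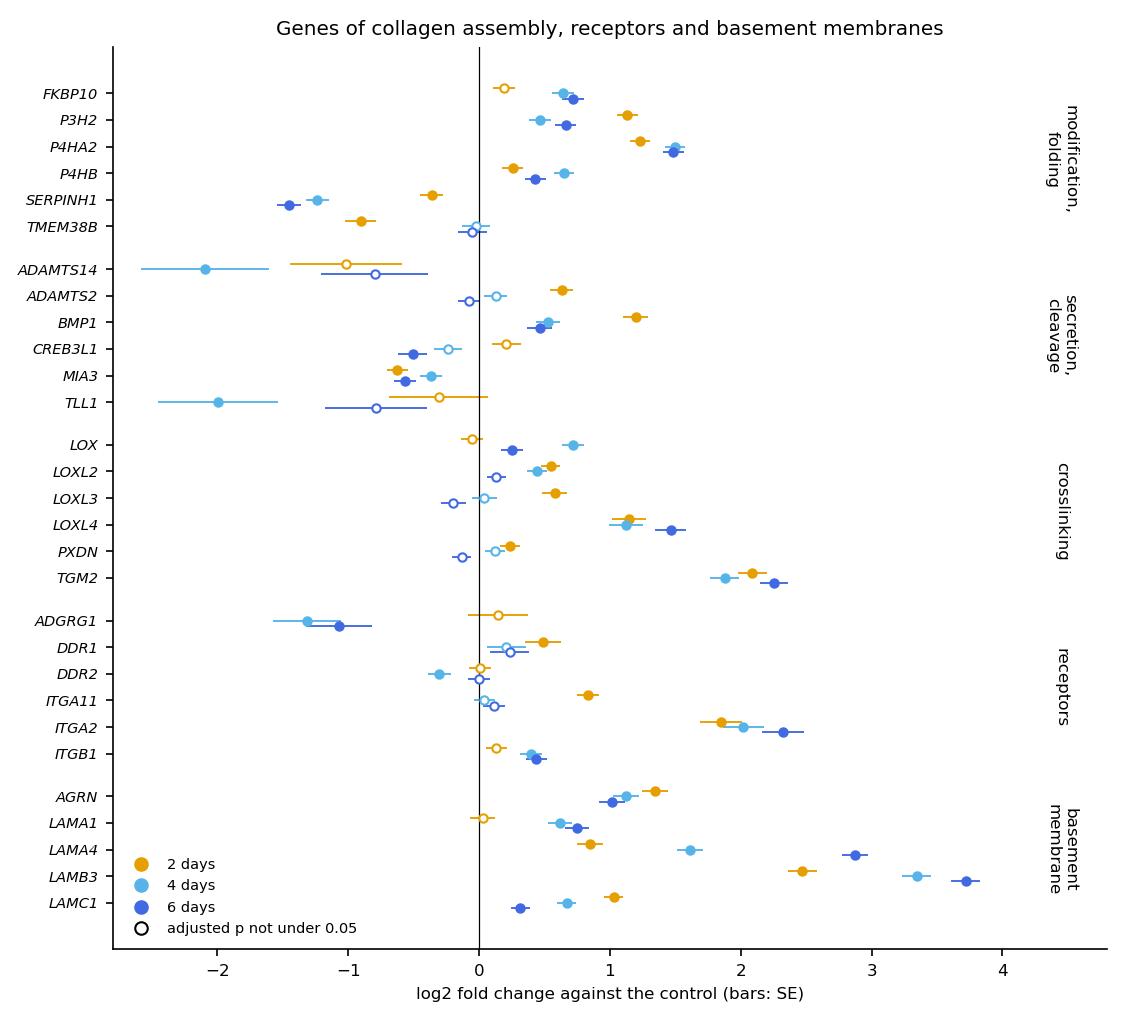
Log2 fold change against the control (horizontal axis, bars show the SE) after 2, 4 and 6 days of doxorubicin for genes of collagen modification and folding, secretion and cleavage, crosslinking, receptors and basement membranes, with filled points for an adjusted p under 0.05. LAMB3 reaches 3.72 after 6 days, and SERPINH1 lies to the left at all 3 exposures (-0.36, -1.24 and -1.45).

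Markers of other cell types changed across the same exposures. Of the 12 fibroblast markers other than collagens, 7 were higher and 1 lower after 2 days, 5 and 5 after 4 days, and 5 and 6 after 6 days. The shares of all genes were 23.8 and 23.4%, 18.8 and 17.7%, and 22.0 and 21.7%. Their summed level was 3950 to 4150 CPM in the control libraries, 5890 to 6150 CPM after 2 days, 6800 to 6950 CPM after 4 days and 6100 to 6280 CPM after 6 days, most of it VIM and FBN1. LUM and DCN, small proteoglycans that coat collagen fibrils, stood at 213 and 126 CPM in the control and at 58.8 and 64.5 CPM after 6 days. Of 6 tested smooth muscle and myofibroblast markers of 7, 5 were higher and 0 lower after 2 days, 3 and 2 after 4 days, and 3 and 3 after 6 days. Their sum was 422 to 469 CPM in the control libraries and 795 to 991 CPM in the exposed ones, and ACTA2, smooth muscle actin, went from 10.1 CPM to 83.4, 94.7 and 107 CPM. MYLK and SMTN were also higher after 6 days. TAGLN, CNN1 and LMOD1 were lower then, at 84.9, 11.8 and 4.08 CPM against 109, 27.5 and 10.1 CPM in the control. MYH11, the defining myosin of smooth muscle, stayed at or under 0.249 CPM. Leukocyte markers summed to 4.82 to 7.35 CPM in the control libraries, 5.85 to 7.19 CPM after 2 days, 10.1 to 13.2 CPM after 4 days and 11.4 to 13.1 CPM after 6 days. Of 3 tested of 6, CD68, a lysosomal protein of macrophages and other cells, was called higher after 4 and 6 days (2.96-fold and 3.03-fold, adjusted p = 7.7e-06 and 3.73e-06) and CD14 lower. CD3E stayed at or under 0.0189 CPM on average. Endothelial markers summed to 20.4 to 27.3 CPM over all libraries. Of 4 tested of 6, 0 were called after 2 days, 2 were higher and 2 lower after 4 days, and 1 was higher and 2 lower after 6 days. KDR and VWF were lower at 4 days (log2 fold changes -1.93 and -1.95, adjusted p = 7.73e-05 and 0.00203) and PECAM1 higher (log2 fold change 1.00, adjusted p = 0.00517). CDH5 stayed at or under 0.096 CPM on average. The part of these cell types in the collagen results was not tested.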

How the data were processed

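RNA sequencing counts were analysed for 12 libraries of AC16 cells, 3 in each of 4 groups. The deposited table holds unnormalized whole-number counts for 60607 versioned Ensembl gene IDs. The submitters' processing notes name fastp 0.23.2, Trimmomatic 0.38, STAR 2.7.8, HTSeq 0.13.5 and the genome build GRCh38.p13, without roles or order. Per the labels' protocols the library kit was NEBNext Ultra RNA. Whether reads were counted by strand is not given in the sources used here. It is therefore not known whether reads of genes that overlap on opposite strands were told apart. Gene symbols came from a table of Ensembl IDs and matched 60437 IDs. Exon lengths and positions came from GENCODE release 29, and promoter sequences from RefSeq. Protein sequences were not used here.

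Counts were tested with edgeR 4.0.16 (glmQLFit with robust settings, glmQLFTest) in R 4.3.3. The package limma 3.58.1 was loaded, and no limma test was run. The low-count filter was filterByExpr (minimum count 10, minimum total 15), and 17320 genes passed it. Libraries were scaled by TMM, all 12 were fitted with a mean per group, and p-values were adjusted by Benjamini-Hochberg over all 17320 genes with a threshold of 0.05. The SE is the absolute log2 fold change divided by the square root of F. The comparisons were each exposure with the control, 4 with 2 days, 6 with 4 days and any difference among the 4 groups. The comparison of 6 with 2 days was added after the data were seen, to test differences between exposures. The procedure was tested on simulated data. No 2 libraries of a group agreed within sampling noise, with a chi-square per degree of freedom of 4.12 to 21.5.

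The collagen genes and all lists were chosen with earlier results of these data known. Values in every library are given for the 26 collagen genes whose mean reached 20 CPM in some group, or with a log2 fold change of at least 1.5 in size past the threshold against the control. Of the other tested genes at most the 2 with the largest changes per class were given fold changes, and of each partner list the 6 with the smallest p were named. One gene that this rule names is not reported here. The alternatives were DESeq2 1.42.0, RLE size factors, scaling by totals alone, a filter at 1 CPM in 3 libraries, dropping the low-count filter, a replicate block, the compared groups alone, leaving out each library in turn and, added after the data were seen, leaving out control replicate 2 and 2-day replicate 3 together. Intervals of count ratios are exact 95% intervals (Clopper-Pearson) and cover counting error only.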

Additional observations from a re-analysis of the deposited data

Results flagged for a closer look

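For 3 collagen genes the change against the control was called in opposite directions at 2 exposures, and the direct comparison of those exposures passed the threshold in edgeR's quasi-likelihood test. Both conditions were the rule by which the genes were picked, so the direct comparisons are not separate support. The share of all genes that met the rule was not computed. COL1A1 was higher after 2 days and lower after 6 days, and its log2 fold change between 6 and 2 days was -1.09 (SE 0.086, adjusted p = 3.22e-10). Its 6-day call against the control was lost without 6-day replicate 2 (adjusted p = 0.0853). COL3A1 was higher after 2 days and lower after both longer exposures, with a log2 fold change of -1.22 between 4 and 2 days (SE 0.081, adjusted p = 2.28e-11) and of -1.18 between 6 and 2 days (SE 0.08, adjusted p = 2.53e-11). COL5A3 was higher after 2 days and lower after 6 days, with a log2 fold change of -3.65 between 6 and 2 days (SE 0.52, adjusted p = 3.93e-06), from 73 counts over the 2-day libraries and 6 over the 6-day libraries. In all 4 of these comparisons every library of the longer exposure lay below every 2-day library, which the rule also favours.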

How the results depend on the processing

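Among the 35 collagen genes and 6 comparisons between groups, 144 fold changes were called in at least 1 setting. Under the 18 to 20 alternatives that gave each a value, 0 changed direction, and 35 gained or lost a call in at least 1. The number of collagen genes called higher from 4 to 6 days was 6 and ranged from 3 to 6 when 1 library was left out, and the number called lower was 4 and ranged from 2 to 6. The other counts stayed within 1.5 times their value: 19 to 21 higher and 3 to 4 lower after 2 days, 11 to 15 and 8 to 9 after 4 days, 15 to 19 and 9 to 11 after 6 days, 4 to 6 and 19 to 20 from 2 to 4 days, and 30 to 34 genes that differed among the 4 groups. These counts take in collagen genes that pass only an alternative's filter. Over the 35 genes alone the count after 6 days was 15 to 17 higher. With libraries scaled by their totals alone, the all-gene median after 2 days was -0.14, and 20 collagen genes were higher and 4 lower. Deviations from the group means correlated at -0.171 to 0.096 between libraries with the same number. Between libraries with different numbers they correlated at -0.217 to 0.17. With 3 libraries per group these values cannot show whether libraries with the same number shared a culture or batch, and the labels do not say. With a replicate block the counts were 20 and 3, 14 and 9, 17 and 10, 4 and 20, and 5 and 4 in the 5 comparisons, and 32 among the 4 groups. The count for any difference has no fit of the compared groups alone. Dividing by the longest transcript moved the control level per kilobase of 19 of 26 genes by more than 1 SD. Genes under 1 CPM rest on few counts. Of the 9 genes that did not pass the main filter, COL19A1 was called higher after 4 and 6 days in all 12 alternatives that tested it, COL6A5 after 6 days in the 1 that did, and the other 7 against the control in none. Apart from the fit with no low-count filter, only fits that kept the exposed libraries with its most counts tested COL19A1. Its 12 calls are therefore not separate support.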
